A study of Mus musculus with 3 samples.

Results

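The mitochondrial ribosomal protein genes are nuclear genes whose protein products make up, with RNA encoded in mitochondrial DNA, the ribosome inside mitochondria. They were taken as the genes whose symbol is Mrpl or Mrps followed by a number and at most 1 letter, which gave 78 of the 55536 annotated genes. The rule itself reads symbols and no measured value. They were measured in RNA of the nuclear fraction of bone-marrow-derived macrophages (BMDM) from C57BL/6J mice, sequenced as total RNA after depletion of ribosomal RNA. The cells had received lipid A, the TLR4-binding part of lipopolysaccharide, at 100 ng/ml for 12 h, then 12 h without it, then 100 ng/ml again for 15 min. All 3 libraries belong to this 1 group and carry 1 donor identifier. Age and sex are given as not collected. One label field calls the fraction the nucleus and the description calls it nucleoplasmic. There is no untreated group here, so the values describe levels and their spread between cultures, and none of them is a response to lipid A.

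The mitochondrial ribosome translates the few mRNAs that mitochondrial DNA encodes, all of them for subunits of the oxidative phosphorylation complexes. Its proteins are made in the cytosol from nuclear genes and imported, and they join the mitochondrially encoded ribosomal RNA in the matrix. Some are homologues of bacterial ribosomal proteins, and others were added in the mitochondrial lineage. By the place of the protein in the ribosome, 51 of the genes encode large subunit proteins and 26 encode small subunit proteins. Mrps30 and Mrps18a are counted in the large subunit, where their proteins sit despite their names. The remaining gene, Mrps36, encodes a component of the 2-oxoglutarate dehydrogenase complex and not a ribosome subunit.

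The annotated genes of replicates 1 to 3 had 23826101, 19312032 and 21730342 expected counts. The lower RNA input of replicate 2 was 500 ng, against 1 µg for the others. All 10 macrophage markers were detected, and of 28 markers of granulocytes, T cells, B cells, dendritic cells, fibroblasts and erythroid cells 0 were detected. Detection here means a TPM (the authors' level per transcript length, scaled to a fixed sum in each library) of at least 1 in all 3 libraries. In bulk RNA of this kind, fewer cells with a transcript and less of it per cell cannot be told apart.

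Sequence upstream of a few members is shown first. Of the 78 members, 69 had promoters in the RefSeq table for GRCm38.p6 (75 promoters, each covering the bases just before and after a start). Each line gives bases between the start of the member and that of a gene on the opposite strand, or upstream bases of a highly expressed member, 5′ to 3′ on the member's strand. Capitals mark matches to the motifs CCGGAAG (ETS family, which includes GABP) or CGCANGCGC (NRF1 core) on either strand. The stretches between starts for Mrpl49, Mrpl30, Mrpl32, Mrpl50, Mrpl37 and Mrpl2 held no such match and are not shown.
Mrps18c, 28 bases between it and Helq, chr5:100798599-100798626, plus strand: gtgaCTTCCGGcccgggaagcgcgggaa
Mrps27, 80 bases between it and Ptcd2, chr13:99344706-99344785, plus strand: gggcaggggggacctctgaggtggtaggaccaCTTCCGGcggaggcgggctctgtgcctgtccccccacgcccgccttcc
Mrpl10, 152 bases between it and Lrrc46, chr11:97041408-97041559, plus strand: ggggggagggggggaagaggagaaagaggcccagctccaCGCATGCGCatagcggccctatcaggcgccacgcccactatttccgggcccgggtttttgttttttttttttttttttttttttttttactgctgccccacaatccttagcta
Mrps12, 171 bases between it and Sars2, chr7:28741821-28741991, minus strand: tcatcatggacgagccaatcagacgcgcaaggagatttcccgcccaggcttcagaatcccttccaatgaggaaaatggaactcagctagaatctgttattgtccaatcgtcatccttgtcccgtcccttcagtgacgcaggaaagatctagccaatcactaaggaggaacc
Mrpl57, 48 bases between it and Ska3, chr14:57826186-57826233, plus strand: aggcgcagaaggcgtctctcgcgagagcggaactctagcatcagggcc
Mrps21, 245 upstream bases, chr3:95871520-95871764, minus strand: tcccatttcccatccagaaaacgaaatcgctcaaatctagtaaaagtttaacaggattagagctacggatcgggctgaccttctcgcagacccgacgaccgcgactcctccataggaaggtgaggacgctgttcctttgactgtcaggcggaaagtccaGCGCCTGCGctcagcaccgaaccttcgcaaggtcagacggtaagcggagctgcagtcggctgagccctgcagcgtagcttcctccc
Mrpl24, 212 upstream bases, chr3:87919294-87919505, plus strand: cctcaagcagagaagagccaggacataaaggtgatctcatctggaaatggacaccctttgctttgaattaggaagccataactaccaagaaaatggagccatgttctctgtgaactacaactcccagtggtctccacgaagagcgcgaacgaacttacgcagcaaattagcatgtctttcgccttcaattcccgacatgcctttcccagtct

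Nearly every mitochondrial ribosomal protein gene had detectable RNA in the nuclear fraction, and most of them at a low level. Of the 78 members, 77 (98.7%) were detected, against 42.8% of 22028 protein-coding genes. The 1 gene under the threshold, Mrpl35 for a large subunit protein, had 1.53, 1.77 and 0.93 TPM and fell short in replicate 3 alone. In the second quantification that the authors deposited, 19 members reached this threshold on its own TPM scale and 78 after rescaling to nuclear protein-coding genes. The share of all protein-coding genes on these scales is not given here, so these counts are not compared with other genes. The median level over the members was 2.64, 2.56 and 2.47 as log2(TPM + 1), a mean of 2.56 ± 0.08 (SD, n = 3). Over all 9434 detected protein-coding genes it was 3.25 ± 0.10. The members therefore lay below the detected genes by 0.56, 0.80 and 0.71 log2 units, and the sign was the same in all 3 libraries. On the linear scale the median of the members' mean TPM was 5.03, against 8.63 for detected protein-coding genes. By mean TPM 39 members were under 5, 28 were between 5 and 10, and 11 were at 10 or above.

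Both other large groups of nuclear genes for ribosomes and respiration stood higher. The cytosolic ribosomal protein genes, for the ribosome that makes most of the cell's protein, had a median of 5.20 ± 0.13 log2 units over 80 genes. The nuclear genes of oxidative phosphorylation, which the products of mitochondrial translation join in shared complexes, had 3.66 ± 0.01 over 84 genes. Neither group overlapped the members' range of 2.47 to 2.64 over the libraries. Both were detected almost as fully as the members, at 77 of 80 genes (96.25%) and 77 of 84 genes (91.7%). These comparison groups were chosen with the values known, so the gaps are a description.

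**Figure D1:**
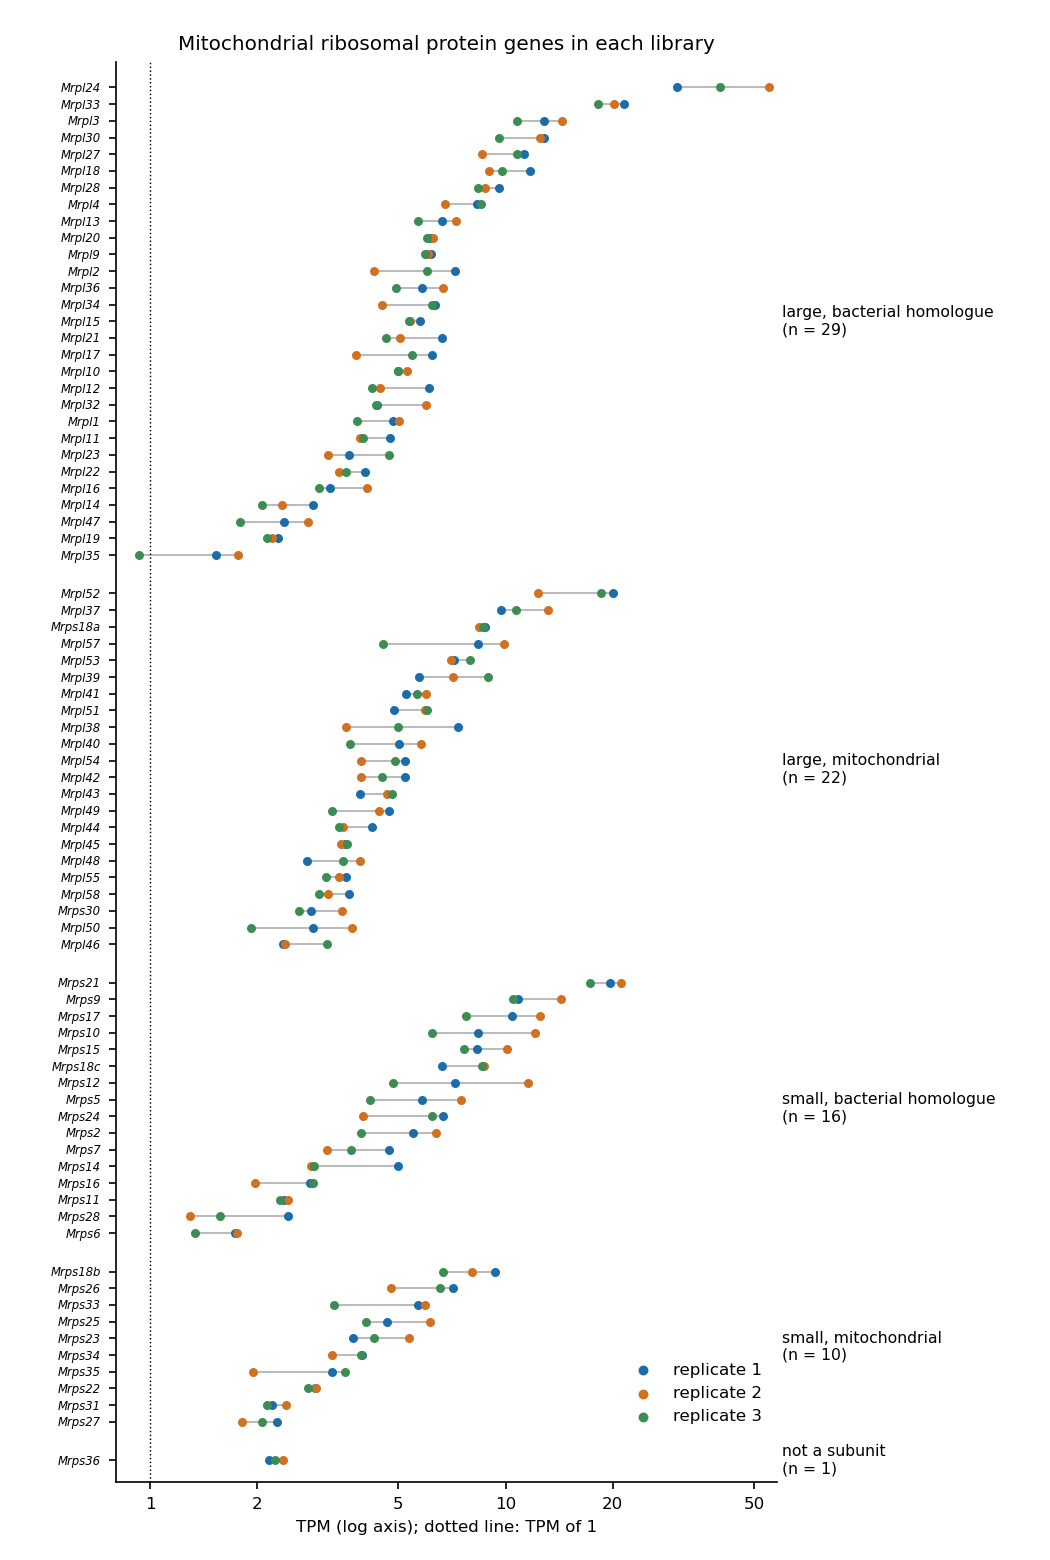
TPM (log axis) of each of the 78 genes in replicates 1, 2 and 3, grouped by the place and origin of the protein and ordered by mean TPM. Mrpl24 stands alone above 30 TPM, and Mrpl35 is the single gene with a library under the dotted line at 1 TPM.

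Mrpl24, a large subunit gene with a bacterial homologue (ENSMUSG00000019710.13, chromosome 3, 87919506 to 87923672, plus strand, mm10), had the highest level of all members. Its TPM was 30.4, 55.0 and 40.1, a mean of 41.8 ± 12.4, which placed it 919th among the 9434 detected protein-coding genes. Its lowest library lay above the highest library of every other member. Mrpl33 followed at 21.5, 20.2 and 18.2 TPM, then Mrps21 at 19.7, 21.1 and 17.3 TPM and Mrpl52 at 20.0, 12.3 and 18.6 TPM. These ranges overlapped, so their order does not exceed the spread between libraries. Mrpl33 and Mrps21 encode homologues of bacterial proteins of the large and small subunit, and Mrpl52 a large subunit protein added in mitochondria. The rest of the top 10 were Mrpl3 (12.7 TPM), Mrps9 (11.9 TPM), Mrpl30 (11.6 TPM), Mrpl37 (11.2 TPM), Mrps17 (10.2 TPM) and Mrpl27 (10.2 TPM). Mrpl27 encodes a protein next to the site where peptide bonds form.

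At the other end, Mrps6 had 1.74, 1.76 and 1.34 TPM and Mrps28 had 2.44, 1.3 and 1.57 TPM. With Mrpl35 at a mean of 1.41 TPM, these were the 3 lowest members. Mrps27, a small subunit protein with pentatricopeptide repeats, had 2.06 ± 0.230 TPM. Mrpl19, Mrps31, Mrps36, Mrpl47, Mrps11 and Mrpl14 had means from 2.21 to 2.43 TPM. The products of the lowest and the highest members sit in the same particle, yet the means ran from 1.41 to 41.8 TPM. The counts behind these levels were small. A member had a median of 194, 128 and 145 expected counts in replicates 1, 2 and 3, and single values ran from 19 to 1145.

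The genes of the large and the small subunit did not differ in median level by more than the spread between libraries. The median was 2.60 ± 0.04 log2 units for 51 large subunit genes and 2.52 ± 0.17 for 26 small subunit genes. The difference within a library was 0.0058, -0.0031 and 0.24 log2 units, a mean of 0.08 ± 0.14, which is smaller than its own spread. In the second quantification it was 0.19, and 0.30 on the scale of nuclear protein-coding genes. Genes for homologues of bacterial proteins (45 genes) had a median of 2.70 ± 0.13, and those for mitochondrial additions (32 genes) 2.39 ± 0.10. This difference was 0.33, 0.31 and 0.27 in the 3 libraries, a mean of 0.30 ± 0.03. It did not hold in the second quantification, where it was 0.029 on the scale of nuclear protein-coding genes. By role, the median was 2.72 for large subunit genes with a bacterial homologue, 2.46 for the other large subunit genes, 2.76 for small subunit genes with a bacterial homologue and 2.27 for the other small subunit genes.

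The paralogues of 1 family had overlapping levels. Mrps18a, Mrps18b and Mrps18c are related to 1 bacterial small subunit protein, and the first of them serves in the large subunit. In the grouping above, Mrps18c alone was counted as the bacterial homologue. With all 3 counted so, in an alternative added after the data were seen, the difference between homologues and additions was 0.44 ± 0.06 log2 units. They had 8.60 ± 0.147, 8.01 ± 1.35 and 7.95 ± 1.16 TPM, and their ranges overlapped. Mrpl12, whose product also binds the mitochondrial RNA polymerase, had 6.09, 4.43 and 4.21 TPM. Mrps30 had 2.97 ± 0.436 TPM.

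**Figure D2:**
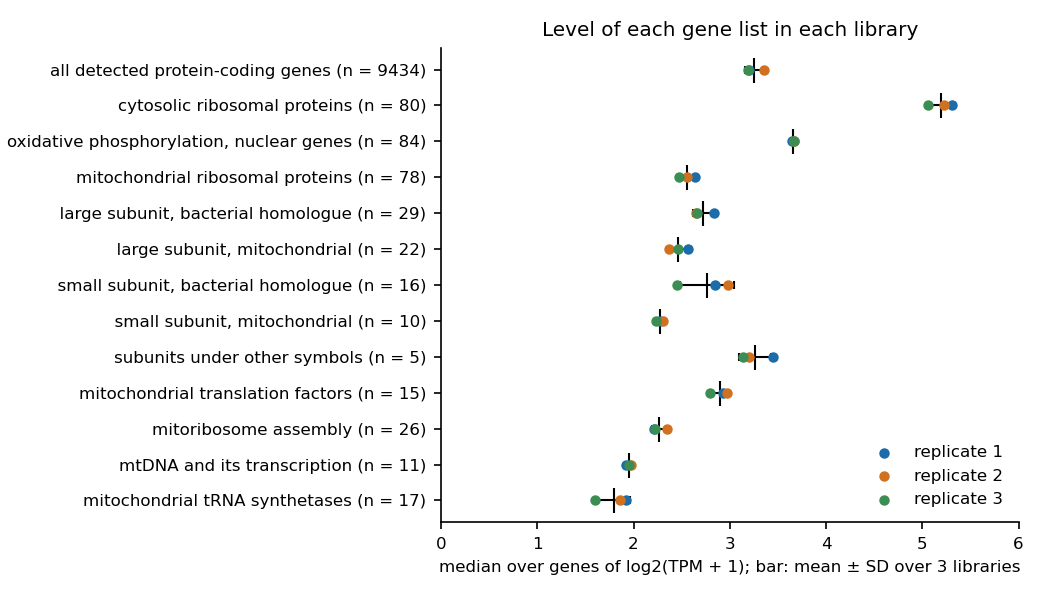
Median over genes of log2(TPM + 1) for each gene list in replicates 1, 2 and 3, with the mean and SD over libraries as a bar. The mitochondrial ribosomal protein genes lie at 2.56, below detected protein-coding genes at 3.25 and above mitochondrial tRNA synthetases at 1.80.

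Other genes of mitochondrial gene expression spanned levels on both sides of the members. The 5 ribosome subunits that carry other symbols were all detected, with a median of 3.26 ± 0.16 log2 units. Dap3, a GTP-binding small subunit protein first known from studies of cell death, was highest at 18.6 ± 1.74 TPM, and Gadd45gip1 lowest at 1.5 TPM. Of the translation factors, 14 of 15 were detected, with a median of 2.90 ± 0.09. Gfm2, which helps to split the ribosome after termination, led them at 12.9, 20.4 and 13.3 TPM, and the recycling factor Mrrf was lowest at 1.09 TPM. Of the assembly factors 23 of 26 were detected, with a median of 2.27 ± 0.08. The RNA helicase Dhx30 was highest at 19.7 TPM and the methyltransferase Mettl15 lowest at 0.61 TPM.

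The genes that charge mitochondrial tRNA and those that keep and transcribe mitochondrial DNA were lower. The tRNA synthetase list had 16 of 17 genes detected and a median of 1.80 ± 0.17 log2 units, from Cars2 at 11.7 TPM to Mars2 at 0.833 TPM. The list for mitochondrial DNA and its transcription had 11 of 11 detected and a median of 1.95 ± 0.03, from the single-strand binding protein gene Ssbp1 at 14.5 TPM to the helicase gene Twnk at 1.29 TPM. Of the transcription factors and coactivators known to act on such genes, 8 of 10 were detected. Esrra was highest at 16.3 ± 1.86 TPM. Nrf1 had 7.15 ± 1.69 TPM and Gabpa, the DNA-binding subunit of GABP, 6.28 ± 0.512 TPM. Ppargc1a was listed at 0 in all 3 libraries.

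The members' share of all counts varied little between the libraries. They held 0.0771%, 0.0729% and 0.0681% of the expected counts, a mean of 0.0727% ± 0.0045 (SD, n = 3). The mRNAs encoded by mitochondrial DNA, the templates of this ribosome, held 4.25%, 4.98% and 2.30%. By counts the order of the libraries differed: the members were highest in replicate 1 and the mitochondrial mRNAs in replicate 2. By summed TPM the order was the same, highest in replicate 2 and lowest in replicate 3. The members had 503, 518 and 460 TPM, and the mitochondrial mRNAs 36735, 56875 and 18682 TPM. Mitochondrial mRNAs are made outside the nucleus, so the fraction also held some RNA from outside it. The part of such RNA in the members' levels and isoform shares was not tested. The ribosomal RNA genes of mitochondrial DNA varied most. mt-Rnr1 had 355, 151 and 1492 TPM and mt-Rnr2 had 305, 59.5 and 1439 TPM. The libraries were depleted of ribosomal RNA, and the part of that step in this spread was not tested.

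Each library was compared with the other libraries by edgeR's quasi-likelihood test on the counts, with Benjamini-Hochberg adjustment over all 14350 genes tested. With 1 library against 2, this test describes these libraries. Of the 78 members 0 passed an adjusted p of 0.05 in replicates 1, 2 and 3, against 0.202%, 0% and 0.00697% of all genes tested. At an unadjusted p under 0.05 the counts were 0, 2 and 0 members, against 6.15%, 6.11% and 3.74% of all genes tested. DESeq2 called 0, 0 and 0 members and 76, 18 and 33 of all 14350 genes. The smallest adjusted p of a member was 0.899 in replicate 1 (Mrpl24), 0.773 in replicate 2 (Mrpl52) and 0.9996 in replicate 3. The members past the unadjusted threshold were Mrpl52 and Mrps24, lower in replicate 2 by edgeR log2 differences of -0.97 and -0.95. Mrpl52 had 195, 84 and 177 expected counts.

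The members leaned one way in replicate 1 without any single gene passing. The log2 difference of replicate 1 was above 0 for 62 of 78 members (79.5%), against 48.3% of all genes tested, with a median of 0.17 against -0.01. In replicate 2 it was above 0 for 26 members (33.3%) against 49.1%, with a median of -0.13. In replicate 3 it was above 0 for 39 of 78 members against 46.8%, with a median of -0.02. The 3 comparisons use the same libraries, so a lean in one fixes part of the others. The cytosolic ribosomal protein genes also held their largest share of counts in replicate 1, at 0.281%, 0.232% and 0.240%. Replicate 2 had the lower RNA input, and its part in these values was not tested. By TPM 33 of the 78 members were highest in replicate 1, where 21.3% of all detected protein-coding genes were, and 35 in replicate 2, where 59.5% of those genes were. Nuclear protein-coding genes held 20.0%, 22.2% and 20.6% of TPM in the 3 libraries.

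**Figure D3:**
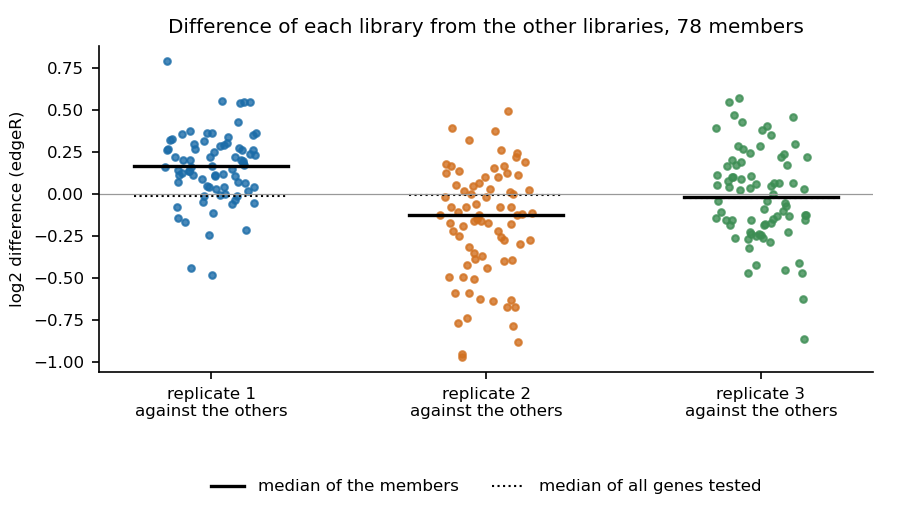
edgeR log2 difference of each library from the other libraries, 1 point for each of the 78 genes, with the members' median as a solid line and that of all genes tested as a dotted line. The solid line lies at 0.17 for replicate 1, -0.13 for replicate 2 and -0.02 for replicate 3.

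Single members varied about as much as other genes. The median SD of log2(TPM + 1) over the 77 detected members was 0.19, against 0.20 over detected protein-coding genes. The part expected from counting alone, taken from each member's mean count, has a median of 0.11. It is in log2 counts with no pseudocount, so it compares only roughly with the SD of log2(TPM + 1). The most variable members were Mrps12, Mrpl57, Mrpl38, Mrps10 and Mrpl24. Mrps12, for the protein at the decoding centre of the small subunit, had 7.23, 11.6 and 4.81 TPM and its libraries were well apart. Its expected counts were 91, 68 and 77, with no such gap. Its TPM moved with a short transcript of the processed-transcript class, Mrps12-203, which had 3.51, 9.76 and 1.16 TPM from 20.6, 41.2 and 7.28 counts. Mrpl38 had 7.37, 3.56 and 4.97 TPM and Mrps10 had 8.37, 12.1 and 6.22 TPM. The steadiest named member was Mrps18a, with 8.73, 8.44 and 8.63 TPM.

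The annotated isoforms show how the authors' estimate splits the members' RNA between coding isoforms and other classes. A coding share by this estimate is not a measure of finished mRNA. The members have 343 transcripts in the deposited tables, of which 170 are annotated as protein-coding, 88 as retained intron, 24 as targets of nonsense-mediated decay and 61 as processed transcripts. Summed over the members, protein-coding isoforms held 66.9% ± 1.95 of TPM, retained-intron isoforms 23.6% ± 1.73, processed transcripts 6.41% ± 0.516 and decay targets 3.13% ± 0.192. A retained-intron isoform keeps an intron that the coding isoform removes. Nuclear RNA also holds transcripts that are not yet spliced, and reads from these can be assigned to such isoforms. Their part in these shares was not tested.

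Over the 48 detected members with a retained-intron isoform, its median share was 27.2%, 30.7% and 28.1% of the gene's TPM, a mean of 28.6% ± 1.82 (SD, n = 3). Over 5980 detected protein-coding genes that have one it was 23.95% ± 0.441. The members were higher by 3.397, 6.21 and 4.42 percentage points in the 3 libraries. From expected counts in place of TPM, which give long isoforms more weight, the gap was 15.0 points. The share was 14.2% ± 0.877 for cytosolic ribosomal protein genes and 17.3% ± 0.441 for nuclear genes of oxidative phosphorylation. Small subunit genes (15 with such an isoform) had 40.8% ± 2.55 and large subunit genes (33) 25.2% ± 2.30. That difference was 17.8, 15.3 and 13.6 points in the 3 libraries, and 5.67 points from expected counts.

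Some members were led by an isoform that is not annotated as protein-coding. In 14 of 77 detected members (18.2%) the isoform with the highest mean TPM was not a protein-coding one, against 11.4% of 9428 detected protein-coding genes with a transcript in the table. For cytosolic ribosomal protein genes it was 12 of 77 (15.6%), and for nuclear genes of oxidative phosphorylation 7 of 77 (9.09%). The count was 6 of 50 for the large subunit and 8 of 26 for the small subunit. By the second quantification the shares were 27.3% of members and 20.9% of detected protein-coding genes. From expected counts they were 16.9% and 9.46%, and the subunits were then close to each other, at 16% for the large and 19.2% for the small subunit. The 14 were Mrpl13, Mrpl15, Mrpl24, Mrpl32, Mrpl51, Mrpl57, Mrps5, Mrps9, Mrps10, Mrps12, Mrps14, Mrps16, Mrps26 and Mrps35.

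**Figure D4:**
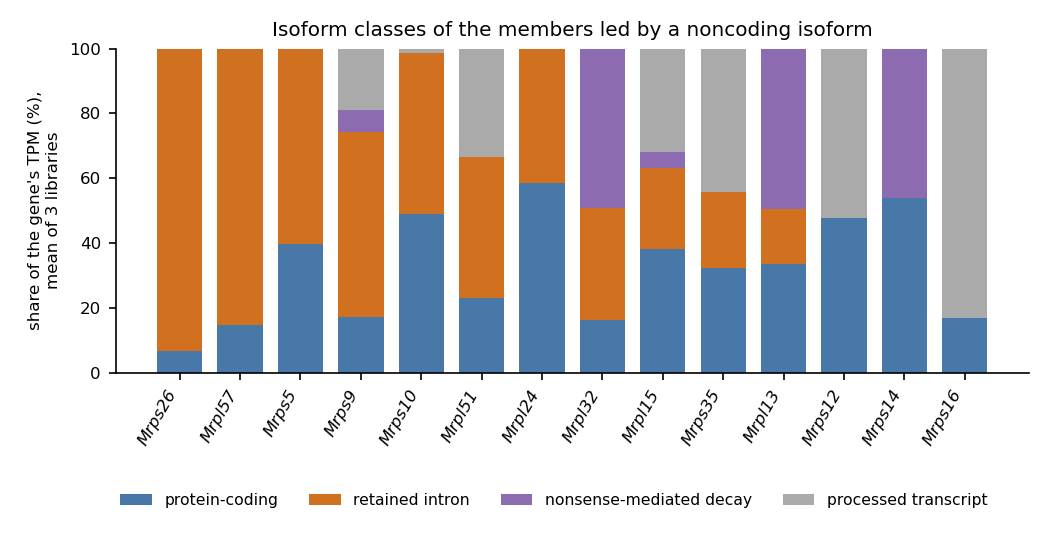
Share of each gene's TPM held by each class of isoform, mean of 3 libraries, for the 14 detected members whose highest isoform is not annotated as protein-coding. Mrps26 and Mrpl57 are almost wholly retained intron (93.2% and 85.3%), Mrps16 is mostly processed transcript (83.1%), and Mrpl13 and Mrpl32 are near an even split between decay targets and other classes.

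Mrps26, a small subunit gene added in mitochondria, had the highest retained-intron share, at 93.8%, 90.97% and 94.8% of its TPM. By expected counts its share was 74.2%, below Mrpl23 (81.1%) and Mrps10 (80.3%). Its retained-intron isoform Mrps26-201 had 6.66, 4.33 and 6.18 TPM and its coding isoform 0.440, 0.430 and 0.340 TPM. Mrpl57 had 88.8%, 89.6% and 77.4%, but 41.99% by expected counts. Its retained-intron isoform has 519 bases and its coding isoform 2877 bases. Mrps5 had 74.1%, 43.1% and 64.1%, with libraries far apart, and 29.9% by expected counts. Mrps9 had 57.2% ± 5.15 and Mrps24 56.4% ± 11.5, and the second quantification gave 34.0% for Mrps24. The lowest shares among members with such an isoform were those of Mrpl43 (3.88%), Mrpl9 (4.78%), Mrpl47 (8.44%), Mrps18c (9.88%) and Mrps17 (10.9%). The value of Mrps18c rested on replicate 3 (29.6%), with the other libraries at 0%. The second quantification gave 54.7% for Mrps17, 18.4% for Mrpl9 and 16.98% for Mrps18c. Expected counts gave 1.79% for Mrpl9, 1.07% for Mrpl43 and 2.13% for Mrps18c.

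Part of the TPM of the highest member lay in such an isoform. Mrpl24-206, a retained-intron isoform, had 11.0, 27.9 and 15.2 TPM, which was the highest of 6 Mrpl24 transcripts. The leading coding isoform, Mrpl24-203, had 8.74, 15.0 and 12.1 TPM. Both isoforms were highest in the library where the gene was highest, and both are part of the gene's TPM. The coding isoforms of Mrpl24 together held a mean of 58.4% of the gene's TPM. The 3′ part of Mrpl24 overlaps Rrnad1 on the opposite strand. No source used here says whether the counting used strand, so reads of the overlapping stretch cannot be assigned with certainty. The same limit holds for 36 of 78 members (46.2%) that overlap a gene on the opposite strand, a share close to that of detected protein-coding genes (44.8%).

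Members often began back to back with another gene. In 33 of 78 members (42.3%) a protein-coding gene on the opposite strand started within 1000 bases of the member's start, head to head. For detected protein-coding genes this share was 18.4% of 9434. In 18 members (23.1%, against 11.5%) the starts were apart with no overlap, and in 11 of them (14.1% of members, against 5.23%) they were at most 100 bases apart. In the other 15 the partner started inside the member. The window was chosen with the positions known, and genes that face each other share 1 stretch of DNA, so these shares are a description of the annotation. Of the 33 partners, 25 were themselves detected. For detected protein-coding genes with such a partner it was 1370 of 1740, a similar share.

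**Figure D5:**
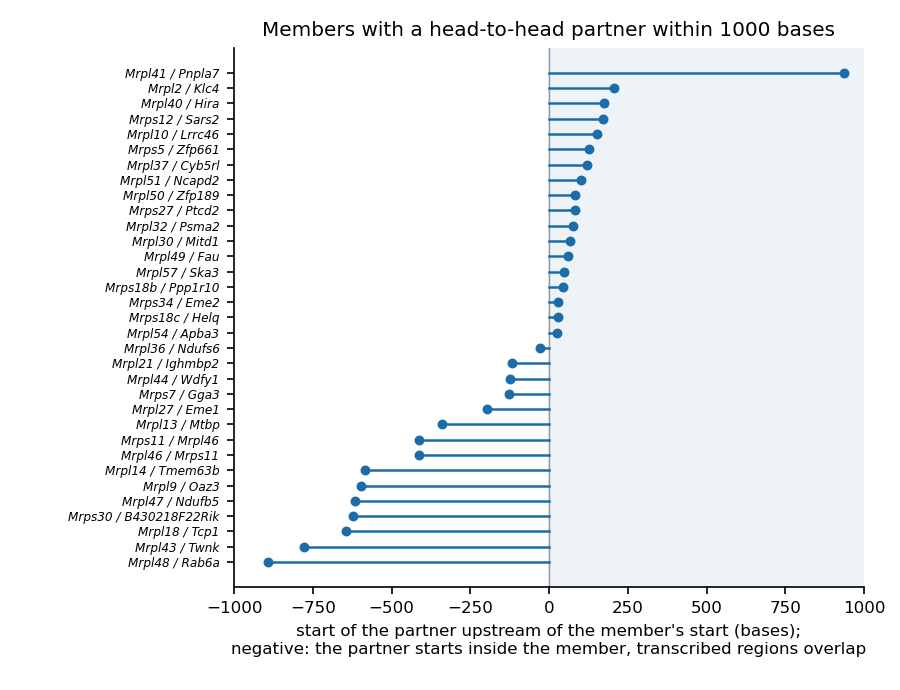
Distance in bases from the start of each of 33 members to the start of its head-to-head partner, as member / partner. Positive distances (shaded) are partners that start upstream with no overlap, from 26 bases for Mrpl54 and Apba3 to 935 bases for Mrpl41 and Pnpla7, and negative distances are overlapping starts.

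Some partners also work in mitochondria. Mrps12 starts 172 bases from Sars2, the mitochondrial seryl-tRNA synthetase gene, whose 1.82, 2.22 and 1.84 TPM lay below the 7.87 ± 3.42 TPM of Mrps12. Processed-transcript isoforms held 48.5%, 84.5% and 24.1% of the Mrps12 TPM, so the level of its coding isoforms was lower than this. Mrpl36 and Ndufs6, a complex I subunit gene, overlap by their first bases, and Ndufs6 had 7.39 ± 1.56 TPM against 5.81 ± 0.870 TPM for Mrpl36. Mrpl43 overlaps the start of Twnk, the mitochondrial DNA helicase gene. In 1 case both genes are members. Mrps11 and Mrpl46 start head to head on chromosome 7 (78783119 to 78792989, plus strand, and 78775236 to 78783531, minus strand, mm10) and overlap at their starts. Mrps11 had 2.38, 2.44 and 2.32 TPM and Mrpl46 had 2.37, 2.40 and 3.14 TPM, with overlapping ranges.

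Other pairs were far from equal. Mrpl49 starts 59 bases from Fau, which encodes a ubiquitin-like fusion with a cytosolic ribosomal protein, and they had 4.12 ± 0.764 and 95.9 ± 15.4 TPM. Mrps18b starts 45 bases from Ppp1r10, for a nuclear phosphatase regulator, with 8.01 ± 1.35 and 37.6 ± 15.0 TPM. The 152 bases shown above for Mrpl10 separate a gene at 5.0, 5.29 and 5.0 TPM from Lrrc46, which was listed at 0 in all 3 libraries. Mrpl57 had 7.59 ± 2.77 TPM and its partner Ska3, for a protein of the mitotic spindle, 0.547 ± 0.0874 TPM. A retained-intron isoform held 85.3% of the Mrpl57 TPM. Mrps18c (7.95 ± 1.16 TPM) and the helicase gene Helq (5.50 ± 1.07 TPM) were closer to each other, as were Mrpl30 (11.6 ± 1.79 TPM) and Mitd1 (13.0 ± 0.499 TPM).

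A set of 3 motifs was more frequent in the members' promoters than in promoters of detected genes. The ETS motif CCGGAAG was in 34.7% of 75 member promoters, against 20.0% of 9657 promoters of detected protein-coding genes and 8.86% of all 32851 promoters. The NRF1 core CGCANGCGC was in 18 of them, against 14.8% and 6.31%. The motif ATGGCGGC, bound by YY1, was in 12, against 5.55% and 2.24%. At least 1 of these 3 was in 57.3% of member promoters, against 34.8% and 15.4%. Both strands were searched, and matches of these 3 motifs did not overlap each other in any member promoter.

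The other motifs searched were near or below the shares of detected genes. The GC box GGGCGG was in 52.0% of member promoters against 63.1%, CCAAT in 40.0% against 37.5%, TATAAA in 6.67% against 6.86% and the E-box CACGTG in 9.33% against 10.6%. In 2 member promoters an ETS match overlapped a GC box match. The median TPM was 5.13 for the 18 members with the NRF1 core and 4.96 for the others with a promoter, and 5.91 for the 26 with the ETS motif against 4.82. For YY1 the order was the opposite, 4.75 for 12 members with the motif against 5.10. The median was higher with CCAAT (27 members, 6.13 against 4.50) and with the E-box (5 members, 6.13 against 4.92). It was lower with the GC box (34 members, 4.86 against 5.43) and with TATAAA (5 members, 3.42 against 5.13). The 212 bases shown for Mrpl24, the highest member, hold none of the ETS, NRF1 and YY1 letters. A match is a description of the sequence and does not show that a factor binds there.

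The members lie on 17 chromosomes, with the highest numbers on chromosome 11 (11 genes), chromosome 17 (8 genes) and chromosome 6 (7 genes). For 2 members the deposited quantifications disagreed by more than 2 times after both were scaled to nuclear protein-coding genes. Mrpl48 had 16.1 TPM on that scale in the main table and 45.1 in the second, and Mrps36 had 10.8 and 29.5. The median ratio of the second to the main over all members was 1.05.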

How the data were processed

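RNA of the nuclear fraction of 3 BMDM cultures, numbered as biological replicates 1 to 3 in the labels, was measured by total RNA-seq. All share 1 donor identifier, and no label says whether they came from separate mice. The p-values below therefore measure only spread between these samples. The expected counts are estimated counts that the authors deposited per gene and transcript, made with mm10 and GENCODE M21 per the file headers and notes. The deposited TPM and FPKM values were scaled by the authors per library. Their columns are those that RSEM writes. A second deposited transcript table, with the columns that kallisto writes, gave the alternative estimated counts and TPM, summed per gene. The tools, their versions and strandedness were not given in the sources used here. Rows that are not annotated genes were left out (0.827%, 0.275% and 0.0547% of counts).

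TPM was analysed as log2(TPM + 1). Levels are given as mean ± SD over the 3 libraries, and depth limits precision since a member had a median of 128 to 194 counts per library. Expected counts were rounded, filtered with filterByExpr, scaled by TMM and tested with edgeR 4.0.16, with DESeq2 1.42.0 as alternative, in R 4.3.3. Python 3.11.15, pandas 2.3.3 and numpy 2.4.6 were used. The count test was tested on simulated data. Promoters came from RefSeq (GRCm38.p6), and positions from GENCODE M21 (mm10).

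The rule for members reads symbols alone, but this gene family and the lists were chosen with earlier results of these data known. Comparison groups (cytosolic ribosomal proteins, oxidative phosphorylation), the head-to-head window of 1000 bases and the differences from the background were chosen after the values were seen. Named members were the 10 highest and 10 lowest by mean TPM, Mrps18a, Mrps18b, Mrps18c, Mrpl12, Mrps30 and Mrps36, and members passing a test. Also named were the 5 highest and 5 lowest retained-intron shares and members led by an isoform not annotated as protein-coding. The 5 with the highest SD and those whose quantifications differed over 2 times were named too. Of each list of mitochondrial gene expression, the highest and lowest gene was named. Other genes, such as head-to-head partners, Nrf1 and Gabpa, were named after their values were seen. Alternatives covered replicates, scaling, quantification, unit, pseudocount, filters, tool and threshold.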

Additional observations from a re-analysis of the deposited data

Results flagged for a closer look

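Processed pseudogenes named after members lie outside the rule and were not part of the comparisons above. Mrpl23-ps1 had 24.58, 28.45 and 7.29 expected counts in replicates 1, 2 and 3, above the 3 counts taken as the limit of a count of 0. Its parent Mrpl23 had 149, 99.6 and 132 expected counts. Mrps36-ps2 had 4.64 expected counts in replicate 3, against 34.4 for Mrps36. Reads of a parent and a near-identical copy can be split between them by the authors' estimate, so the levels of Mrpl23 and Mrps36 are uncertain to that extent. The other pseudogenes of this naming were at 3 counts or less in every library.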

How the results depend on the processing

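With 3 libraries of 1 group, the SDs are rough, and low counts limit single members. No paired analysis was possible because there is 1 group. DESeq2 and edgeR could not be rerun without a replicate, since 1 library against 1 leaves no residual degrees of freedom. Rescaling changes the unit, and the cause of the other shifts below was not tested.

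Of the 78 members, 19 were detected by kallisto-format TPM and 26 at a TPM of at least 5. The share of all protein-coding genes at these settings is not given here. The median level of 2.56 became 4.61 after rescaling over nuclear protein-coding genes, 1.57 by kallisto-format TPM, 4.71 by kallisto-format TPM rescaled, 3.01 by FPKM and 2.32 at a pseudocount of 0.1. The gap to detected protein-coding genes was -0.54 by kallisto-format TPM and kept its sign in all 9 alternatives. The difference between large and small subunit was 0.30 by kallisto-format TPM rescaled. The difference between bacterial homologues and mitochondrial additions was 0.35 rescaled, 0.0055 by kallisto-format TPM, 0.029 by kallisto-format TPM rescaled, 0.27 by posterior mean TPM, 0.36 at a pseudocount of 0.1 and 0.44 with Mrps18a and Mrps18b classed as bacterial homologues, an alternative added after seeing the data. The median SD of 0.19 ranged from 0.13 to 0.19 without 1 replicate, and was 0.74 by kallisto-format TPM, 0.22 at a pseudocount of 0.1 and 0.17 by log2(CPM + 1), an alternative added after seeing the data. The members' share was 0.0996% of counts of nuclear protein-coding genes, 0.0494% of TPM and 0.0796% of kallisto-format counts. At an unadjusted p under 0.05, 2 members (2.56%) passed in replicate 2, against 6.11% of all genes tested. The retained-intron share was 32.0% by kallisto-format TPM and 34.5% for members whose mean TPM was at least 5. Its difference between small and large subunit was 13.4 points by kallisto-format TPM and 5.67 from expected counts, and that between members and detected genes 15.0 from expected counts. The protein-coding isoform share of 73.7% was 66.1% by kallisto-format TPM, 82.2% from expected counts and 63.6% at a mean TPM of at least 5. Of 42 named members, 42 moved by more than their SD under rescaling and 0 on leaving out a replicate. Neither count is a test. Rescaling changes the unit, since nuclear protein-coding genes held 20.0%, 22.2% and 20.6% of TPM. The mean of 2 of 3 libraries cannot lie further than the SD from the mean of all 3.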
